A study of Homo sapiens with 1 sample.

Results

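Accessible chromatin at the 3′ ends of genes was examined by ATAC-seq, an assay that uses Tn5 transposase to cut and tag open DNA. The cells were 786-O, an established line from a human clear cell kidney cancer that lacks functional VHL, carrying an empty vector as a control. A single library without a replicate was analysed, so no test between groups was made, no p-value is given, and every interval below is a 95% interval that covers counting error only. A peak was taken as an end peak when it lay on chromosomes 1 to 22, its summit was within 1 kb of the last base of the canonical transcript of a protein-coding gene, and the summit was more than 1 kb from every annotated transcription start site (TSS) of any gene. Of 86239 autosomal peaks, 1189 met this rule (1.38%, interval 1.30 to 1.46), out of 88676 peaks in the list.

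The end of a transcript is where the nascent RNA is cleaved and a poly(A) tail is added, a little downstream of a poly(A) signal, most often AATAAA or its variant ATTAAA. RNA polymerase transcribes past this point before it leaves the DNA. The stretch around a poly(A) site is rich in A and T, and in many genomes it holds few nucleosomes. An ATAC-seq peak there can lie over the 3′ untranslated region (UTR), over the sequence just behind the gene, or over an enhancer or insulator that happens to sit at the end. Enhancers are often bound by AP-1, a dimer of FOS and JUN proteins, and insulators by CTCF.

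The sequences of some end peaks are shown first, as examples of motifs whose frequency differed from that of other distal peaks, AP-1 sites being less frequent at end peaks and CTCF and GC-rich SP/KLF sites more frequent. All are from hg38, are written 5′ to 3′ in lower case with the motif in capitals, and touch no annotated exon. In 3 end peaks with an AP-1 site (TGACTCA or TGAGTCA) and in KLF6, an immediate early transcription factor gene, the plus strand read as follows.
MOGAT1 (chr2:222709464-222709524): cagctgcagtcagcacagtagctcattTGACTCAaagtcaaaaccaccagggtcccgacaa
BCAN (chr1:156660292-156660352): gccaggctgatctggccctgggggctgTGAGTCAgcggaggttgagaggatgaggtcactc
SERINC3 (chr20:44497173-44497233): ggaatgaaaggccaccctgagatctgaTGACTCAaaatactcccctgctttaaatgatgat
KLF6 (chr10:3775432-3775492): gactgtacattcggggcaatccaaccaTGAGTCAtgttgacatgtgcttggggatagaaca

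The 3 strongest end peaks with a CTCF site carried the core of the CTCF motif within 50 bp of the summit. SLC4A3 is shown on the minus strand and the other two on the plus strand.
SLC4A3 (chr2:219642653-219642701): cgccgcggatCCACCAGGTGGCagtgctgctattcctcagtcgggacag
DENND2A (chr7:140518076-140518124): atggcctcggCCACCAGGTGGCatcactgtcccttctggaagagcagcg
CRIP2 (chr14:105481015-105481066): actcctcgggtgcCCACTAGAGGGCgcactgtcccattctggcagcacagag

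The windows of 81 bases centred on the summits downstream of SFN, DLX2 and JUNB show the GC-rich kind, with the SP/KLF site GGGCGG on either strand in capitals. Those of CCL20 and DPF3 held none of the motifs searched. All are on the plus strand.
SFN (chr1:26865179-26865259): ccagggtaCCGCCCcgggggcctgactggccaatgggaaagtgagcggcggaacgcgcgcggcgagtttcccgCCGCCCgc
DLX2 (chr2:172099064-172099144): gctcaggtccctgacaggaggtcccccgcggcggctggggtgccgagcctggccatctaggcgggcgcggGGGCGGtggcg
JUNB (chr19:12793761-12793841): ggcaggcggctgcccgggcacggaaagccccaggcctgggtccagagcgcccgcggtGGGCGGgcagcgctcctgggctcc
CCL20 (chr2:227818400-227818480): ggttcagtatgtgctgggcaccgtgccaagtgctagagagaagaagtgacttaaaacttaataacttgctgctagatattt
DPF3 (chr14:72608582-72608662): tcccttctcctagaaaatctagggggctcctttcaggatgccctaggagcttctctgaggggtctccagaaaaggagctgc

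The label of the cells was checked by promoter peaks, that is, summits from 1000 bp upstream to 100 bp downstream of a TSS of the gene. PAX8 and PAX2, transcription factors of the renal lineage, had promoter peaks of fold 32.0 and 22.7. VIM, EPAS1 and NNMT had them at fold 47.9, 21.6 and 7.21. No promoter peak was listed at CA9 or CDH6, nor at the leukocyte genes PTPRC and CD3E or the endothelial genes PECAM1 and CDH5. The total read number is not known. The fold of a peak is its summit pileup, the number of fragments or reads stacked there, plus 1, over a genome-wide background of 0.941 plus 1, and pileups in the list ran from 9 to 300.

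End peaks were not rare for the sequence available to them. Windows of 1 kb to each side of ends, after removal of everything within 1 kb of a TSS, held 30.0 Mb or 1.09% of the sequenced autosomal bases, beside the 1.38% of peaks. Before the TSS exclusion 1908 peaks lay within 1 kb of an end, and 719 of these (37.7%, 35.5 to 39.9) also lay within 1 kb of a TSS and were left out. Of 19111 canonical ends, 18501 had some eligible sequence, and 1222 of them had an end peak, so that the share of ends called was 6.61% (6.25 to 6.97). Among these genes 72 had a pair of end peaks and none had more. Conversely 99 end peaks (8.33%, 6.82 to 10.0) lay near the ends of at least 2 genes and were counted for each gene but only once as peaks.

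The density of summits within 1 kb of ends was 39.7 per Mb (37.4 to 42.0) of eligible sequence. This was 1.55 times (1.46 to 1.64) the 25.6 per Mb of all other sequence away from TSSs. It was close to that of the surroundings of the same ends, however. From 2 to 5 kb on both sides the density was 38.5 per Mb (37.1 to 39.9), a ratio of 1.03 (0.964 to 1.10), and from 8 to 10 kb it was 34.8 per Mb, a ratio of 1.14 (1.06 to 1.23). Over all ends, an excess above the adjacent 2 to 5 kb was therefore not detectable at this number of peaks. It differed with base composition, however. With the ends in 3 classes by the GC content of the last 200 bp, a split added after the data were seen, the ratio was 0.797 (0.696 to 0.912) in the lowest class, 1.03 (0.914 to 1.15) in the middle one and 1.21 (1.09 to 1.35) in the highest. Those 200 bp lie inside the 1 kb windows and not in the flanks. The classes thus select on 1 side of the ratio, and the values are a description only. At the ends of 14639 long noncoding RNA genes at least 10 kb from coding ends the same ratio was 1.14 (1.05 to 1.23), with 37.2 per Mb within 1 kb.

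Density differed between the 2 sides of the end. The 1 kb after the end held 46.2 summits per Mb (42.9 to 49.8) and the 1 kb before it 33.0 (30.1 to 36.0), a ratio of 1.40 (1.25 to 1.57). An asymmetry of this kind reached far beyond the end, since 2 to 5 kb after the end against 2 to 5 kb before it gave 1.30 (1.21 to 1.40). The 1 kb after the end did not stand above the 2 to 5 kb after it (ratio 1.06, 0.972 to 1.16), nor did the 1 kb before the end fall below its own flank (0.985, 0.887 to 1.09).

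The sharpest feature was a dip over the last 200 bp of the transcript, a zone chosen after the profile was seen. It held 60 summits, or 19.4 per Mb (14.8 to 24.99), against 36.6 per Mb (33.2 to 40.2) from 200 to 1000 bp before the end, a ratio of 0.531 (0.405 to 0.696). The first 200 bp after the end held 39.1 per Mb. Density was highest from 200 to 600 bp after the end, at 53.3 per Mb (47.7 to 59.4), and from 600 to 1000 bp it was 42.6 per Mb. The 200 to 600 bp zone was also chosen after the profile was seen. Its ratio to the last 200 bp, 2.75 (2.09 to 3.62), sets the highest stretch against the lowest and so was bound to exceed 1. Farther downstream, the bin from 1201 to 1400 bp held 51.1 per Mb (43.2 to 60.2), an interval that overlaps that of this zone.

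**Figure D1:**
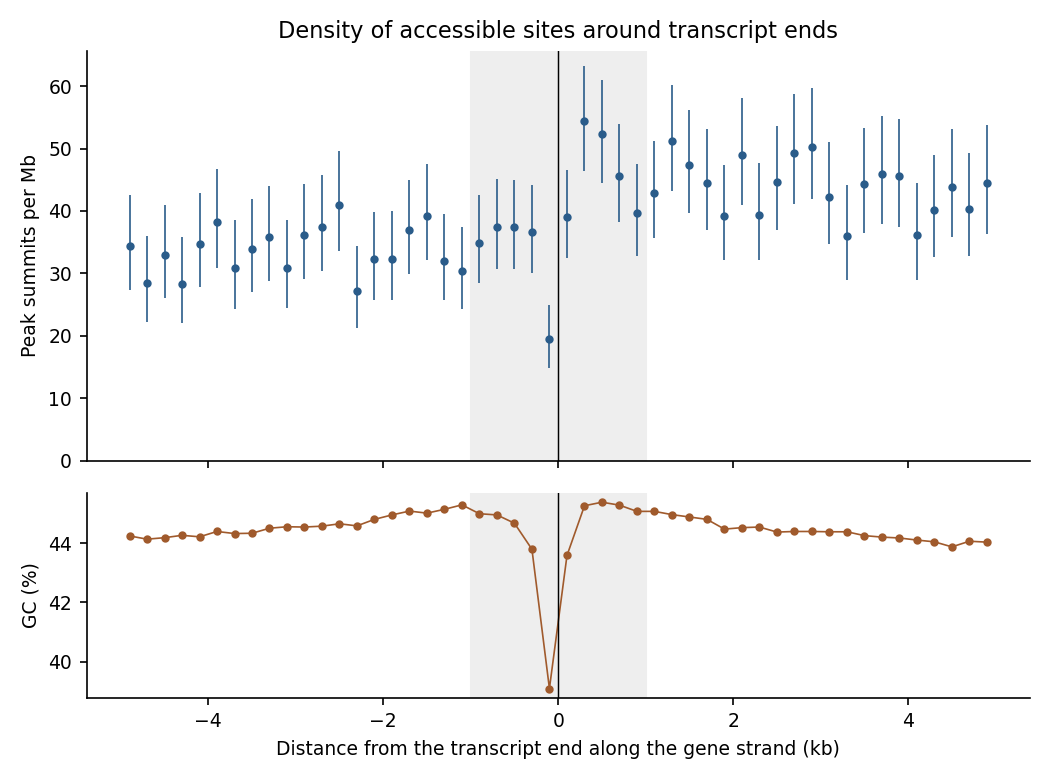
Peak summits per Mb of eligible sequence (upper panel, points with exact Poisson 95% intervals) and GC content of that sequence (lower panel, percent, with the axis not starting at 0), in bins of 200 bp from 5 kb before to 5 kb after canonical transcript ends. The shaded band marks the 1 kb to each side that defines end peaks, the density falls to 19.4 per Mb in the last 200 bp, and GC content is lowest in the same bin at 39.1%.

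GC content moved with the dip. The last 200 bp had a GC content of 39.1%, the lowest of the bins plotted. When the ends were divided into 3 classes by the GC content of their last 200 bp, at 33.5% and 45.5%, the density in the last 200 bp relative to 200 to 1000 bp before the end was 0.110 (0.0348 to 0.345) in the lowest class. The ratio was 0.480 (0.298 to 0.774) in the middle class and 0.808 (0.569 to 1.15) in the highest class, where the interval included 1. Only 3 summits fell in the last 200 bp of the lowest class, whereas 38 did in the highest. The classes were set by the GC content of the same 200 bp whose density is compared, so the split is a description only. The part of GC content in the dip was not tested.

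Genes with and without an end peak held the poly(A) signal about equally often. AATAAA was present in the last 50 bases of 65.2% (62.5 to 67.9) of genes with an end peak and of 63.2% (62.5 to 63.9) of genes without one, and ATTAAA as the only signal in 14.7% and 14.1%. The dip was 0.524 (0.375 to 0.733) at ends with AATAAA, 0.505 (0.242 to 1.06) at ends with ATTAAA and 0.571 (0.318 to 1.02) at ends with neither.

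By annotation, 702 of the 1189 end peaks had their summit downstream of the end (59.0%, 56.2 to 61.9), whereas 50.7% of the eligible bases lay there. A further 354 summits lay in the 3′ UTR of the gene itself, 79 in one of its introns and 54 in its coding sequence. Of the 702 downstream summits, 470 were outside all genes, 162 in an intron of another transcript or gene and 70 in an exon. The median distance from the summit to the nearest TSS was 4031 bp (3796 to 4301), and the interval of 116 end peaks (9.76%) reached to within 1 kb of a TSS although the summit did not. The interval covered the end itself in 314 peaks (26.4%, 23.9 to 29.0).

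Compared with sequence of the same kind elsewhere, peaks at ends were more frequent in intergenic and intronic sequence and not detectably so in exons. Elsewhere here means all other autosomal sequence over 1 kb from TSSs, far from genes as well as near, and not the flanks of the same ends. Over all classes together, the 2 to 5 kb after the ends held 43.5 summits per Mb. Against that flank the ratio of the 1 kb after the end was only 1.06 (0.972 to 1.16). Intergenic sequence in the end windows held 48.6 summits per Mb against 21.9 in other intergenic sequence away from TSSs, a ratio of 2.22 (2.03 to 2.43). For introns the ratio was 1.37 (1.20 to 1.56), with 38.1 against 27.8 per Mb. For exons it was 0.966 (0.878 to 1.06), with 34.3 against 35.5 per Mb. Exonic sequence here is that of any gene, and 70 of its 492 summits lay downstream of the end.

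In height and breadth the end peaks resembled other distal peaks. Their median fold was 9.28 (8.76 to 9.79), at a median pileup of 17, compared with 9.79 in the 64686 other peaks over 1 kb from TSSs, 9.28 in the other exonic peaks and 17 in peaks within 1 kb of a TSS. The ratio to the other distal peaks was 0.947. Pileups under 15 made up 40.2% (37.4 to 43.1) of end peaks and 39.6% of the other distal peaks. The folds of low peaks are imprecise. At pileup 9, fold 5.15, the interval ran from 2.64 to 9.32, and at pileup 40, fold 21.1, from 15.2 to 28.6. Folds of 20 or more were found in 18.1% (15.9 to 20.4) of end peaks and in 20.7% of the others. The median width was 472 bp (458 to 497) against 478 bp. Broader peaks were higher, with a Spearman rho of 0.721 between fold and width across the 1189 peaks, which are parts of 1 library and not replicates.

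Peaks in the 3′ UTR had a median fold of 8.25 (7.73 to 9.28), those downstream 9.28 (8.76 to 9.79), those in introns of the gene 10.3 (8.76 to 12.4) and those in the coding sequence 10.3 (6.70 to 14.4). These intervals overlapped. Coding-sequence end peaks were the richest in GC, with a median of 61.9% (58.4 to 64.4) within 50 bp of the summit.

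GC content separated end peaks from other distal peaks more clearly than height did. The median GC content around the summit was 53.5% (52.5 to 54.5) at end peaks, 47.5% at the other distal peaks and 61.4% at peaks within 1 kb of a TSS. A GC content of 60% or more was found at 27.2% (24.7 to 29.8) of end peaks and 9.70% (9.47 to 9.93) of the other distal peaks.

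**Figure D2:**
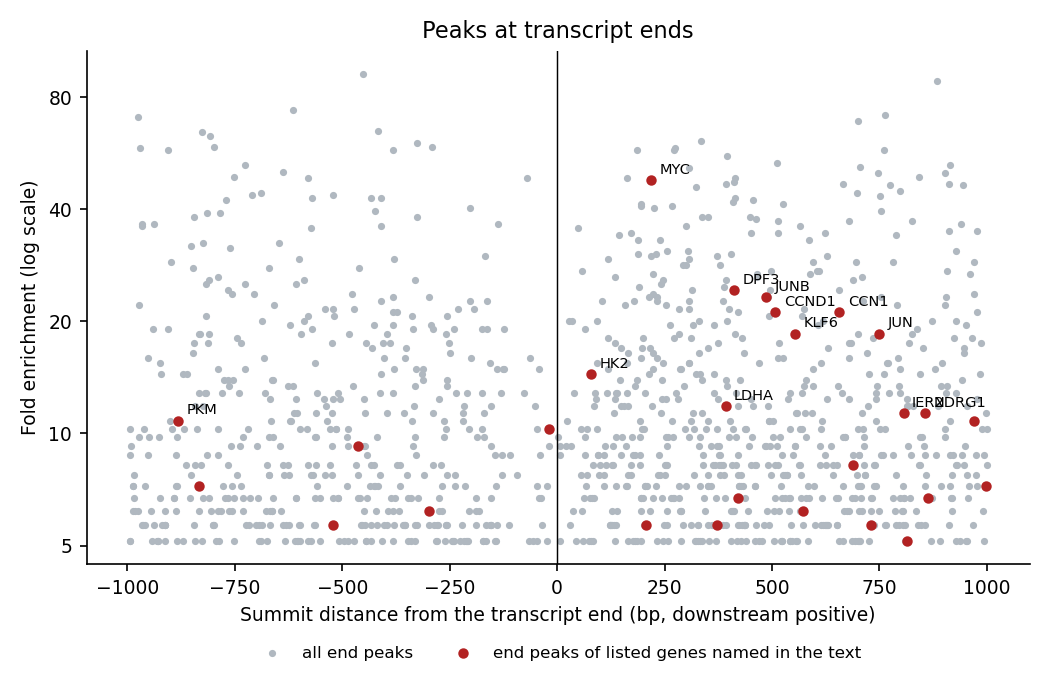
Fold enrichment (log scale) of each of the 1189 end peaks against the distance of its summit from the transcript end in bp, with positions downstream of the end positive. Red points are end peaks of the genes on the 6 gene lists that the text names, the strongest of which are labelled, and MYC at fold 47.9 is the highest of the red points.

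The 10 strongest end peaks had folds from 60.8 to 92.2. The highest was at MOGAT1, an enzyme gene of triacylglycerol synthesis, with fold 92.2 (79.3 to 107) in an intron 451 bp before the end (chr2:222709072-222709927), and it carried the AP-1 site printed above. Next came CCL20, a chemokine that attracts cells bearing CCR6, with fold 88.6 (75.9 to 103) at 884 bp behind the gene, then ANXA5, a calcium-dependent phospholipid-binding protein, with fold 73.7 (62.2 to 86.8) in an intron and also with an AP-1 site. SFN, which encodes 14-3-3 sigma, followed with fold 71.6 (60.3 to 84.5) at 763 bp downstream. The intervals of neighbours in this order overlapped.

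The others were at VXN (70.6), SYCE1L (69.0), TPRG1 (64.9), UBE2H (64.4), SDR42E2 (62.9) and DLX2 (60.8). UBE2H encodes a ubiquitin-conjugating enzyme and DLX2 a homeobox transcription factor. The DLX2 peak was 4970 bp wide with a GC content of 79.2% at its summit, while the MOGAT1 peak was 856 bp wide. The VXN peak lay within 1 kb of the ends of both VXN and the gene ENSG00000285791 and is counted for each. VXN and UBE2H were also among the genes with 2 end peaks, the second ones having folds of 38.1 at 350 bp and 15.5 at 470 bp downstream. The strongest coding-sequence peak, of fold 58.7, lay at RABEPK, 291 bp before its end and also within 1 kb of the end of HSPA5, the endoplasmic reticulum chaperone gene that converges on it.

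The distance limits cut a continuous distribution. The 55 end peaks in the outermost 50 bp of the end limit had a median fold of 8.76, as did the 43 peaks in the 50 bp beyond it. VXN, TCF7L1 (58.2) and ZBTB7B (36.6) were the highest inside, and IL10 (57.7), ALDH3B1 (38.1) and SLC8B1 (37.6) the highest outside. At the TSS limit the medians were 8.25 for 16 peaks inside, led by EPS8L2 (45.9) and SRCAP (40.7), and 8.50 for 14 peaks outside, led by SMIM21 (55.6) and TP53INP2 (48.9).

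Genes with an end peak more often had an open promoter. A promoter peak was found in 890 of 1222 genes with an end peak (72.8%, 70.2 to 75.3) and in 61.4% (60.7 to 62.1) of 17279 genes without one, a difference of 11.4 percentage points (8.73 to 14.0). Of genes with no promoter peak, 4.74% (4.26 to 5.27) had an end peak. The share was 8.07% (7.24 to 8.96) at promoter folds under 20, 7.11% (6.39 to 7.88) from 20 to 40 and 8.32% (7.33 to 9.39) at 40 or more, so it differed between genes with and without a promoter peak but showed no steady order with the height of the promoter. The height of the end peak and that of the promoter peak showed no correlation across the 890 genes with both (Spearman rho 0.002, with both values from the same library). In 185 of the 890 (20.8%, 18.2 to 23.6) the end peak was the higher one.

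The base composition of the end region went with larger differences. With the ends in 5 equal classes from low to high GC content within 500 bp of the end, the share of ends with a peak was 3.05%, 3.78%, 6.70%, 8.59% and 10.8% (9.85 to 11.9 in the highest). Shorter genes had an end peak more often, with 7.46% (6.63 to 8.35) in the shortest of 5 classes and 5.38% (4.67 to 6.15) in the longest. By density the relative difference was wider. From the shortest to the longest genes the classes held 54.99, 42.45, 42.28, 35.97 and 30.67 peaks per Mb of eligible window. The median length of the 3′ UTR was 1066 bp (958 to 1168) in genes with an end peak and 1064 bp in genes without, but the share was not even across lengths. It was 5.05% (4.37 to 5.81) in the class of shortest 3′ UTRs, 7.57% (6.74 to 8.47) and 7.73% (6.89 to 8.64) in the next classes, then 6.54% (5.76 to 7.39) and 6.13% (5.38 to 6.95) in the longest. Per Mb of eligible window these classes held 36.6, 47.0, 45.3, 38.9 and 35.4 peaks. By that measure the class of shortest 3′ UTRs was close to the longest and not the lowest. The separate parts of GC content, gene length and promoter state in these shares were not tested.

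**Figure D3:**
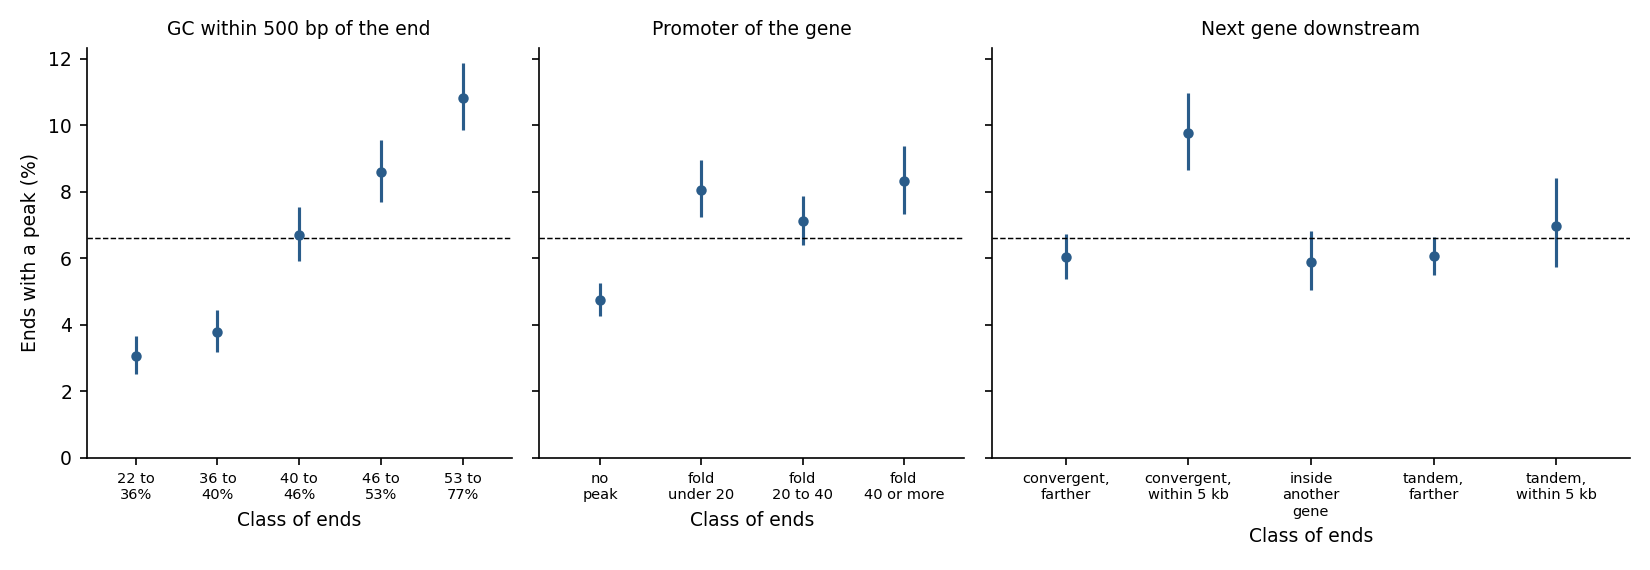
Share of canonical ends with an end peak (percent, points with exact binomial 95% intervals) by 5 classes of GC content within 500 bp of the end, by the promoter peak of the gene and by the next protein-coding gene behind the end. The dashed line is the share over all 18501 ends, 6.61%, and the share rises with GC content from 3.05% to 10.8% and reaches 9.77% where a convergent gene ends within 5 kb.

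Ends facing another gene end had a peak more often than most others. Where the next protein-coding gene was on the opposite strand, with its own end facing this one within 5 kb (convergent genes), 9.77% (8.65 to 10.99) of 2568 ends had a peak, although a peak between such ends can count for both genes. Counted once per peak, the density at these ends was 61.5 per Mb (53.6 to 70.3), 1.41 times (1.17 to 1.70) that of their flanks. Where the next gene ran in the same direction within 5 kb (tandem genes) the density was 53.9 per Mb and the ratio 1.28 (1.01 to 1.62). For ends farther from the next gene, or inside another gene, the ratios were 0.927 to 0.958 with intervals that included 1. Few bases 2 to 5 kb behind close convergent ends belong to those ends, so that their flank is almost wholly the side inside the gene.

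Either strand of the sequence within 50 bp of each summit was searched for motifs, and a match describes the letters present and not a bound factor. AP-1 sites were found in 136 end peaks (11.4%, 9.68 to 13.4), against 18.4% (18.1 to 18.7) of the other distal peaks, a ratio of 0.621 (0.530 to 0.728). They were still far more frequent than in windows of the same length at ends without a peak, where 1.28% of 56736 held one. A scrambled form of the site (TACTGCA or TAGTGCA) was present in 1.60% of end peaks and 2.04% of the other distal peaks.

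CTCF sites showed the opposite pattern. They were present in 67 end peaks (5.63%, 4.39 to 7.10), in 2.46% (2.34 to 2.58) of the other distal peaks and in 0.0300% of the windows without a peak, and the ratio to the other distal peaks was 2.29 (1.81 to 2.91). Against exonic peaks elsewhere the ratio was 1.77 (1.30 to 2.42), against intronic ones 2.64 and against intergenic ones 1.92. Of the downstream end peaks 6.55% (4.84 to 8.64) held a CTCF site, and of those at or before the end 4.31% (2.69 to 6.52). The strongest were downstream of SLC4A3, an anion exchanger gene (fold 37.1, 680 bp), DENND2A (28.3, 294 bp) and CRIP2 (22.2, 903 bp), whose sequences are given above, and they were lower than the strongest peaks with an AP-1 site at MOGAT1 (92.2), ANXA5 (73.7) and IL16 (58.7).

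GGGCGG, the core of SP/KLF sites, was present in 7.49% (6.05 to 9.13) of end peaks and 2.99% of the other distal peaks, a ratio of 2.50 (2.04 to 3.07). It was found in 25.8% of peaks within 1 kb of a TSS. The ETS site CCGGAA had a ratio of 1.65 (1.14 to 2.39) and the hypoxia response core (ACGTG or GCGTG) 1.18 (1.03 to 1.35), with 15.5% of end peaks holding the latter. Against exonic peaks elsewhere these ratios were 0.945 (0.612 to 1.46) and 0.939 (0.803 to 1.10). The RUNX site TGTGGT was less frequent at end peaks (10.5%) than at other distal peaks (14.5%), with a ratio of 0.723 (0.612 to 0.855). For the TEAD site CATTCC the ratio was 0.899 (0.752 to 1.07) and for the short HNF1 site GTTAAT 0.743 (0.540 to 1.02), both with intervals that included 1. The end of a CTCF site can overlap GGGCGG, and matches were counted for each motif on its own.

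The poly(A) signal was seldom found under a summit. AATAAA on either strand was present in 6.56% (5.22 to 8.12) of end peaks but in 14.5% (14.2 to 14.8) of the windows at ends without a peak, a ratio of 0.452 (0.365 to 0.561), while the ratio to the other distal peaks was 0.867 (0.699 to 1.08). ATTAAA was present in 3.70% (2.70 to 4.94) of end peaks, with a ratio of 0.355 (0.265 to 0.475) to the windows without a peak and of 0.678 (0.506 to 0.908) to the other distal peaks. These windows had a median GC content of 43.6%, lower than the 53.5% of end peaks.

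**Figure D4:**
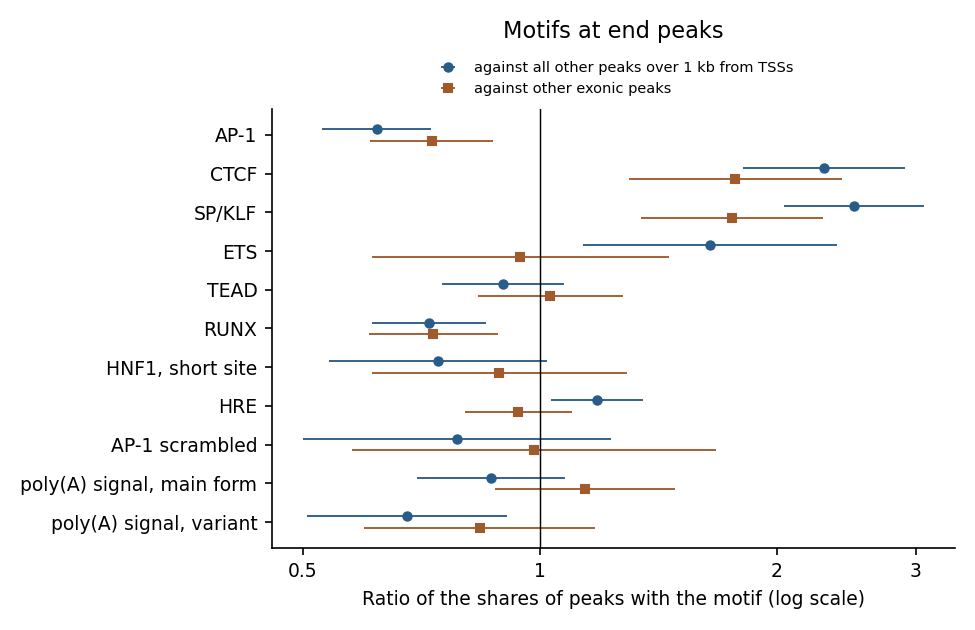
Ratio (log scale) of the share of end peaks with each motif to the share of all other peaks over 1 kb from TSSs (circles) and of other exonic peaks over 1 kb from TSSs (squares), with 95% intervals from the counts. CTCF and SP/KLF lie above 1 and AP-1 and RUNX below 1 in both comparisons, whereas ETS lies above 1 in the first comparison at 1.65 and near 1 in the second at 0.945.

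As end peaks were richer in GC, the 3 main motifs were also compared within ranges of GC content, a split added after the data were seen. Under 45% GC the shares of AP-1 sites were alike, with 17.8% of 253 end peaks and 18.1% of the other distal peaks (ratio 0.983, 0.753 to 1.28). From 45 to 55% GC the ratio was 0.663 (0.518 to 0.849), and from 55% upward it was 0.451 (0.328 to 0.619). For CTCF the ratio was 2.41 (1.58 to 3.69) from 45 to 55% GC and 1.53 (1.14 to 2.06) from 55% upward, while under 45% only 3 end peaks held a site. For GGGCGG the ratio was 1.41 (1.14 to 1.74) from 55% upward, well below the ratio over all end peaks, and 1.41 (0.731 to 2.70) from 45 to 55%. Under 45% only 2 end peaks held GGGCGG, with a ratio of 2.68 (0.660 to 10.85).

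Of the genes on 6 lists, 118 had an eligible end and 26 of these had an end peak (22.03%, 14.9 to 30.6), beside 6.61% of all ends. The lists were made with earlier results of these data known, so the share is a description of these genes only. The list of cytoskeletal and housekeeping genes, which stands for no pathway of interest, had 2 of 15 (13.3%, 1.66 to 40.5), TAGLN2 and PKM.

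Immediate early and AP-1 genes, which respond to growth factors and stress within minutes, had an end peak at 8 of 17 (47.1%, 22.98 to 72.2). The peak of MYC, the growth-promoting transcription factor, had a fold of 47.9 (38.7 to 58.7) at 218 bp behind the end and carried an AP-1 site, and the MYC promoter peak had a fold of 42.2. JUNB had fold 23.2 (16.99 to 30.9) at 486 bp downstream, beside 21.6 at its promoter. JUN had fold 18.6 (13.1 to 25.6) at 750 bp downstream and a second peak of 6.18 in its 3′ UTR, both far below its promoter at 91.7. KLF6 had fold 18.6 at 554 bp downstream, in a peak 3043 bp wide with an AP-1 site.

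IER2 (11.3), EGR1 (10.8), JUND (10.3) and MAFK (6.70) completed this group, each with an end peak lower than the promoter peak. In EGR1, a zinc finger transcription factor, the promoter peak had a fold of 59.3. The summit at JUND lay 19 bp before the end. Several of these genes are very short. JUNB spans 1830 bp, JUND 1929 bp and JUN 3257 bp, and the summits at JUNB and JUND were 1219 and 1216 bp from a TSS, just past the limit of 1 kb. No end peak was listed for FOS, FOSB, FOSL1, FOSL2, ATF3 or DUSP1.

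Hypoxia and VHL pathway genes had end peaks at 6 of 20 (30.0%, 11.9 to 54.3). CCND1, which encodes cyclin D1, had fold 21.1 (15.2 to 28.6) at 508 bp downstream, beside 17 at its promoter. HK2, the hexokinase gene, had fold 14.4 (9.68 to 20.8) only 79 bp behind its end and 24710 bp from any TSS. LDHA, lactate dehydrogenase A, had fold 11.9 at 392 bp downstream and 7.21 in its 3′ UTR. NDRG1 had fold 11.3 at 857 bp downstream, whereas its promoter peak, at 107, was the highest among the 26 listed genes with an end peak. LOX and VEGFA were both near the lower limit of the list at fold 5.67 (2.99 to 9.99). No end peak was listed for VHL, HIF1A, EPAS1, CA9 or SLC2A1.

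Cell movement and TGF-β genes, the group the study centres on, had end peaks at 5 of 28 (17.9%, 6.06 to 36.9). The 6.61% of all ends lay inside this interval. CCN1, a matricellular protein gene, had fold 21.1 (15.2 to 28.6) at 657 bp downstream.

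TGFBR2, the type II TGF-β receptor gene, had fold 9.28 (5.62 to 14.5) in its 3′ UTR, and TGFBI had 7.21 (4.08 to 12.0) at 997 bp downstream, at the very edge of the window. Their promoters had folds of 70.1 and 97.4. SNAI1, a transcription factor of the epithelial-mesenchymal transition, had 2 weak end peaks of fold 8.25 and 5.67, beside a promoter fold of 10.8. No end peak was listed for ZEB1, MMP1, MMP2, SMAD4 or WNT7B.

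Of 20 genes for subunits of the SWI/SNF remodelling complex and partners of DPF3a, 3 had an end peak (15.0%, 3.21 to 37.9). The interval included the 6.61% of all ends. DPF3, the SWI/SNF subunit whose short isoform the study overexpressed in other cells of this line, had fold 24.2 (17.9 to 32.1) at 412 bp behind its end (chr14:72607592-72609130), outside all genes and 13497 bp from a TSS. The DPF3 promoter peak had a fold of 20.1, within that interval. The paper reports that expression of DPF3 was almost undetectable in 786-O cells, and an accessible site alone does not show expression. BRD9, a subunit of the noncanonical form of the complex, had fold 6.18 with an AP-1 site. Of the kidney lineage genes, 2 of 18 (11.1%, 1.38 to 34.7) had an end peak, again with 6.61% inside the interval. They were WT1 at 6.70 and CDH6 at 5.15, and CDH6 was the only listed gene with an end peak and no promoter peak.

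**Figure D5:**
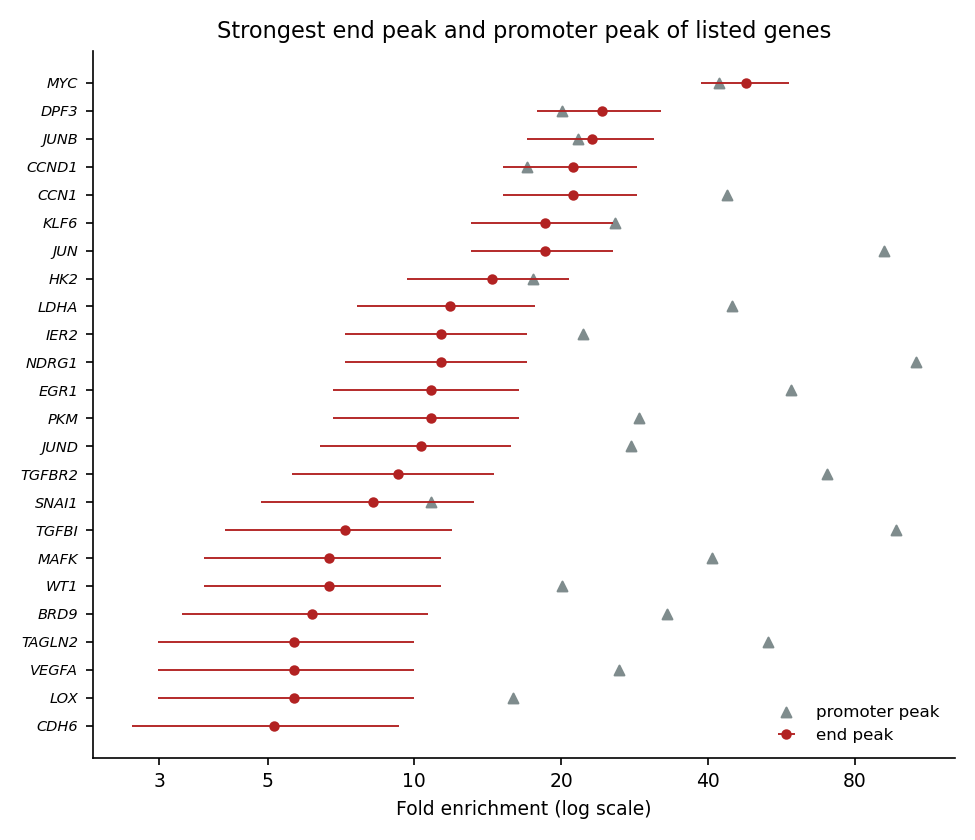
Fold enrichment (log scale) of the strongest end peak (circles, with exact Poisson 95% intervals) and of the promoter peak (triangles) of the listed genes with an end peak that the text names. Among these the end peak is the higher of the pair at MYC, DPF3, JUNB and CCND1, with the promoter value inside its interval at each, and CDH6 has no promoter peak.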

How the data were processed

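ATAC-seq of 786-O cells with an empty vector was analysed from 1 deposited peak list in hg38. According to the study's methods and the submitters' processing notes, the authors trimmed reads with fastp, aligned them with Bowtie2 2.3.4.3, removed low-quality, mitochondrial and duplicate reads, and called peaks with MACS2 2.2.6 on this library alone against a genome-wide background. No shift of reads to the Tn5 cut is stated, so summits may lie some bases off. The deposited columns hold the fold enrichment (a ratio), the −log10 p-value and −log10 q-value and a score, whose lowest value was 52. The list holds 88676 peaks numbered up to 111260 and had been filtered. Peak names carry a wild-type tag, and the label was used.

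The pileup was recovered from the deposited fold. Ends, TSSs and classes came from GENCODE release 44. Each eligible base, over 1 kb from all 211365 autosomal TSSs, was assigned to its nearest canonical end. Shares carry exact Clopper-Pearson intervals, medians order-statistic intervals, densities and folds exact Poisson intervals, and ratios log intervals of the counts. There is no replicate, so these intervals cover counting error only, and peaks of 1 library are not replicates. Distances and densities were tested on simulated data. Python 3.11.15, numpy 2.4.6, pandas 2.3.3 and scipy 1.17.1 were used.

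Members and gene lists were chosen with earlier results of these data known. Named are the 10 highest end peaks, end peaks of listed genes, genes with the most end peaks, the highest per class, neighbour arrangement and motif (AP-1, CTCF), and the 3 highest in the 50 bp to each side of both limits. BCAN, SERINC3 and the motif-free windows were chosen after values were seen. AATAAA was read on both strands around summits and on the gene strand in the last 50 bases. Alternatives varied the score limit, end window, TSS distance, transcripts, overlap and motif window. The library with DPF3a overexpression was not analysed here. Counts over lists cover all their eligible genes, but the values of some genes are not reported here.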

Additional observations from a re-analysis of the deposited data

Results flagged for a closer look

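Peaks at transcript ends were also present on chromosome X, which the rule left out. By the same distances, 15 of its 2236 peaks were end peaks, a smaller share than the 1.38% of autosomal peaks. That chromosome has 859 canonical ends. The share of its eligible ends with a peak was not computed, so there is no like value to set against the autosomal 6.61%. The folds of these 15 peaks reached 20.1, with a median of 9.28, beside a median of 9.28 on the autosomes. The library is itself the empty-vector control, and no other library was compared with it. Chromosome Y had 140 peaks and 0 end peaks.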

How the results depend on the processing

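No paired analysis was possible because the list comes from a single library. Of 64 alternative values 37 moved by less than their counting error (counts by less than 1.5 times), 27 moved further and 0 reversed. The ratio to the 2 to 5 kb flanks stayed between 0.986 and 1.05, with 1 inside each interval, the ratio of median folds between 0.926 and 0.949, and the CTCF ratio between 1.94 and 2.80. With scores above 100 there were 760 end peaks (1.29% of peaks, 4.37% of ends, median fold 12.9, 62.0% downstream). With scores above 200 there were 451 (1.14%, 2.59% of ends, median fold 19.1, promoter difference 8.38 points). A window of 500 bp gave 601 (0.697%, 3.62% of ends, 62.2% downstream, promoter difference 14.3 points) and one of 2 kb gave 2280 (2.64%, 12.0% of ends). A TSS distance of 2 kb gave 1.08% of peaks and 6.02% of ends. Counting overlap of the peak interval gave 1.79% of peaks and 8.56% of ends. With the ends of all transcripts there were 3383 end peaks (3.92%), 55.5% downstream, with an AP-1 ratio of 0.747. Motif windows of 100 bp to each side gave an AP-1 ratio of 0.739. The 200 bp zones, the 200 to 600 bp zone, the classes of ends behind the dip and the GC ranges of the motifs were chosen after the data were seen. Depth limits the folds of low peaks, and peaks below the lowest score of 52 are not in the list.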
